A study of Homo sapiens with 2 samples.

Results

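Of the 46208 deposited TET1 peaks, 40 overlapped 4 windows of hg19 that stand for clusters of replication-dependent histone genes. The windows were HIST1 proximal on chromosome 6 from 26.01 to 26.29 Mb, HIST1 distal on the same chromosome from 27.77 to 27.87 Mb, HIST2 on chromosome 1 from 149.75 to 149.87 Mb and HIST3 on chromosome 1 from 228.6 to 228.66 Mb. A peak was a member when it shared at least 1 base with a window, so the choice used positions and no score or width. The stretch between the HIST1 windows, chromosome 6 from 26.3 to 27.75 Mb and here called the gap, served as the comparison and held 38 peaks.

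The peaks came from 1 V5 ChIP library set against 1 input library. Both were made from H1 human embryonic stem cells differentiated for 7 days to cardiac progenitors, with 6 µM of the WNT activator CHIR99021 until day 2 and 5 µM of the WNT inhibitor IWP2 from day 3 to day 5. The V5 tag sits on the endogenous TET1 protein according to the series' design text, although the genotype entry of both libraries reads wild type. An untagged V5 ChIP was not analysed here, there were no replicates, and read depth was unknown, so the intervals given are counting intervals over peaks and no p-value is given.

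TET1 oxidises the methyl group of methylated cytosine and carries a CXXC domain that binds unmethylated CG dinucleotides. Replication-dependent histone genes supply the H1 linker and the H2A, H2B, H3 and H4 core proteins that package newly copied DNA. They are short, lack introns for the most part, stand in tandem groups and are transcribed mainly in S phase from a nuclear body that forms on the clusters. In a gene table of GRCh38.p14 the runs of neighbouring histone genes that carry these cluster names held 62 protein-coding histone genes: 6 of H1, 14 of H2A, 15 of H2B, 14 of H3 and 13 of H4. The HIST1 proximal run had 32 of them, from H1-1 to H4C8, HIST1 distal 16, from H2BC13 to H2BC17, HIST2 11, from H2BC18 to H2AC21, and HIST3 3 (H3-4, H2AC25 and H2BC26). Since peaks are on hg19 and the table is on GRCh38, no peak was assigned to a gene, and whether each of the 62 genes lies in its hg19 window was not checked.

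Start regions of these genes are shown because the windows were set around clusters of these genes and because the CXXC domain binds CG dinucleotides. For the first listed gene of each family with an entry, the last 150 bases before the start are printed 5′ to 3′ on the gene's strand, from RefSeq. Capitals mark 3 motifs, each on either strand. The first is TATAAA, the core of the box that places the start of transcription. The second is CCAAT, an upstream element bound by the factor NF-Y. The third is TTTGCAT, 7 letters of the octamer bound by the POU factor OCT1.

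H1-1: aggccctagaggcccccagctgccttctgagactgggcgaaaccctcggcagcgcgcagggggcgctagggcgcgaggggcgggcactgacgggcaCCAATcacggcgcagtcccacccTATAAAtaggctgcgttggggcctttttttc
H2AC18: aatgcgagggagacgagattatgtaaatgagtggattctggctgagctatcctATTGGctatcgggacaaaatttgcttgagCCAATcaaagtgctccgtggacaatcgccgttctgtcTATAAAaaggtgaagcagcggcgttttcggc
H2BC18: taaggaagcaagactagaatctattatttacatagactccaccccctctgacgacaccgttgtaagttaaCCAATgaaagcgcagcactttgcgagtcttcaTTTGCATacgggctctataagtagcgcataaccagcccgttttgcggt
H3C13: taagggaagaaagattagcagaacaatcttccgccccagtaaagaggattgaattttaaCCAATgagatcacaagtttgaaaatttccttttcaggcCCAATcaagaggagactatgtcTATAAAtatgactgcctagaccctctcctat
H4C14: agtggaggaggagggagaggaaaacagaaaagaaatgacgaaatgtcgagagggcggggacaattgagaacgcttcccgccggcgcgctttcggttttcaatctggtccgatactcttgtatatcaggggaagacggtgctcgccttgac

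On GRCh38.p14, a build that must not be read against the peak positions, the H1-1 stretch is chr6:26017788-26017937 (minus strand). H2AC18 is chr1:149842751-149842900 (minus strand). H2BC18 is chr1:149812371-149812520 (minus strand). H3C13 is chr1:149813694-149813843 (minus strand). H4C14 is chr1:149832507-149832656 (plus strand). A TATA box and a CCAAT box stood in the printed stretches of H1-1, H2AC18 and H3C13, the CCAAT box and the octamer letters in that of H2BC18, and none of the 3 motifs in that of H4C14.

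Over the 250 bases before the start, 58 of the 62 genes had a window in the table. A CCAAT box was found in 49 of them (84.5%), against 33% of 27305 gene symbols, and a TATA box in 37 (63.8%) against 11.1%. The octamer letters were in 21 (36.2%) against 3.98%, with 11 of 15 H2B windows and 9 of 14 H2A windows, 1 of 12 H3 windows and 0 of the 6 H1 and 11 H4 windows. H4 windows stood apart in that 2 of 11 held a CCAAT box, where every window of the other families did. Neighbouring H2A and H2B genes can share 1 upstream stretch, so these windows are not independent of each other.

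The median histone window held 9 CG dinucleotides in 250 bases (quartiles 5.25 and 12.75) against 11 (3 and 23) over all symbols. The median content of G and C was 42.4% in histone windows against 58% over all symbols. Neither the CG numbers nor the motif shares were adjusted for it. The median CG number was 6 in HIST1 proximal (range 3 to 19, 30 windows), 10 in HIST1 distal (14 windows), 14 in HIST2 (11 windows) and 15 in HIST3 (3 windows). The HIST2 median counts near-identical copies separately: H2AC18 and H2AC19, H4C14 and H4C15 (17 each), and H3C14 and H3C15 (14 each). A median with each copy counted once was not calculated. By family, H4 had the highest median, 13, and H3 the lowest, 5.5. H2AC18 and its copy H2AC19 had the most, 22 each, and H2BC3 and H3C13 the fewest, 3 each.

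**Figure D1:**
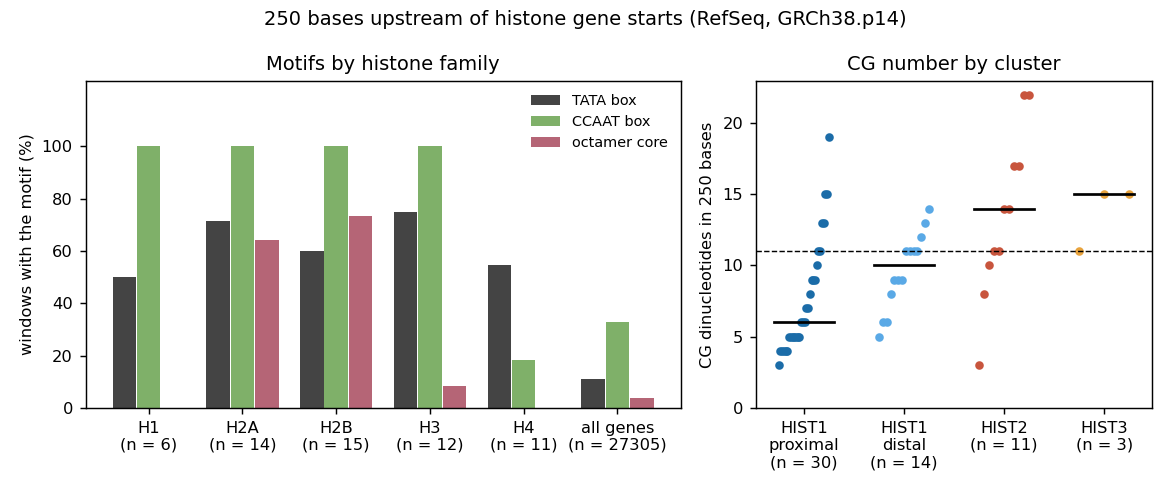
Bars on the left give the percentage of upstream windows of 250 bases holding each motif, by histone family and over all genes; points on the right give the number of CG dinucleotides in each window by cluster, with black lines at the medians and a dashed line at the median of all genes (11). CCAAT bars reach 100% for every family except H4, and the CG medians run from 6 in HIST1 proximal to 15 in HIST3.

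TET1 peaks were dense in the histone windows. The 40 peaks fell on 0.56 Mb, or 71.4 peaks per Mb (exact 95% Poisson interval 51.0 to 97.3). The gap had 26.2 per Mb (18.5 to 35.97), so density was 2.73-fold higher in the windows (exact interval 1.70 to 4.37). The rest of chromosome 6 had 13.1 per Mb and the rest of chromosome 1 had 21.4. The intervals of the clusters overlapped one another: 67.9 per Mb in HIST1 proximal (19 peaks, 40.9 to 106), 80 in HIST1 distal (8 peaks, 34.5 to 158), 66.7 in HIST2 (8 peaks, 28.8 to 131) and 83.3 in HIST3 (5 peaks, 27.1 to 194). The gap is not free of histone genes. In the gene table, 5 of the 19 protein-coding genes between the proximal and distal runs are histone genes (H2BC11, H2AC11, H2BC12, H4C9 and H2AC12), beside 6 butyrophilin genes (BTN, membrane proteins of the immunoglobulin superfamily), 3 zinc finger genes (ZNF322, ZNF391 and ZNF184) and 98 tRNA genes.

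**Figure D2:**
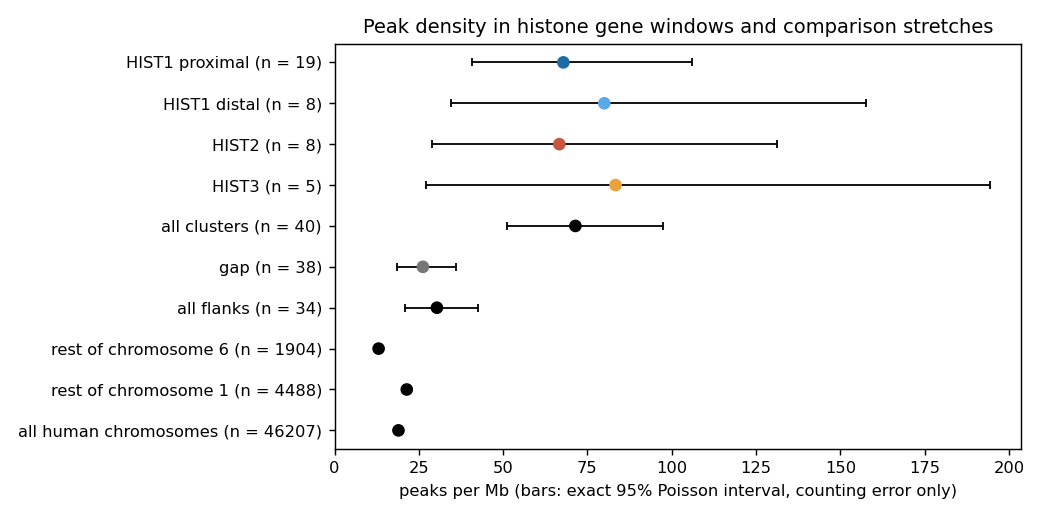
Points give peaks per Mb in each histone window, in the 4 pooled, in the gap, in the flanks of the windows and in larger stretches, with exact 95% Poisson intervals as bars. The 4 windows lie between 66.7 and 83.3 peaks per Mb, and the gap lies at 26.2.

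The HIST1 windows were denser than their own surroundings, whereas for each chromosome 1 window the interval of the ratio included equality. Flanks of the same length on each side held 10 peaks around HIST1 proximal, and the window was 3.8-fold denser than they were (1.68 to 9.15). Around HIST1 distal the fold was 4 (1.07 to 18.2), with 8 peaks in the window and 4 in the flanks. In that window 2 neighbouring pairs were at most 1 kb apart, and no flank comparison was repeated after merging such pairs. For HIST2 the fold was 1.45 (0.508 to 3.97) and for HIST3 1.11 (0.293 to 3.69), with 45.8 and 75 peaks per Mb in the flanks. Whether the folds of the windows differ from each other was not tested. Part of the flank of each HIST1 window lies in the gap, so these comparisons and that with the gap share peaks.

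Counted against genes, the windows together had fewer peaks than the list. There were 0.645 peaks per histone gene (0.461 to 0.879): 19 peaks beside 32 genes in HIST1 proximal, 8 beside 16 in HIST1 distal, 8 beside 11 in HIST2 and 5 beside 3 in HIST3. HIST3 alone had 1.67 per gene (0.541 to 3.89), an interval that includes the values of the list and the gap. The list as a whole had 2.31 peaks per protein-coding gene, and the gap had 2.00 (1.42 to 2.75). Over all 65 protein-coding genes of the histone runs the value was 0.615. The list value counts every peak, also those far from genes. These values depend on how closely genes are packed, and no adjustment for that was made. Gene numbers are by name and order on GRCh38, and the HIST1 proximal and HIST2 runs also contain HFE, FCGR1A and LOC124904411, which are not histone genes.

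Peaks were spread through HIST1 proximal, with 4 stretches of more than 20 kb without one. The longest, 34.3 kb, ran from 26088479 to 26122791 and followed the peak at 26087270 to 26088478 (1209 bp, score 108.75). HIST1 distal was uneven: 6 of its 8 peaks lay before 27807487, where a stretch of 26.7 kb without a peak began, and the others lay at 27834226 to 27835726 and 27859626 to 27863801. In HIST2 the longest such stretch was 22.0 kb and in HIST3 16.0 kb. Across the windows 6 neighbouring pairs were at most 1 kb apart, 3 of them in HIST1 proximal with gaps of 114, 140 and 280 bp. Between the HIST1 windows 0 of 37 neighbouring pairs were this close. The share over all peaks was not calculated. Another midpoint lay within 10 kb for 29 of 40 peaks (72.5%, Wilson interval 57.2% to 83.9%), against 56.7% of all peaks and 10 of 38 (26.3%, 14.97% to 42.0%) in the gap. Such a share rises with peak density, so it is not a trait apart from the density given above. Whether it exceeds what that density alone gives was not tested. After peaks up to 1 kb apart had been merged, the share of the members was 52.9%, and with scores of 100 or more only it was 50%. The shares of the list and the gap were not recalculated in these settings, so the values above are no comparison for them.

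**Figure D3:**
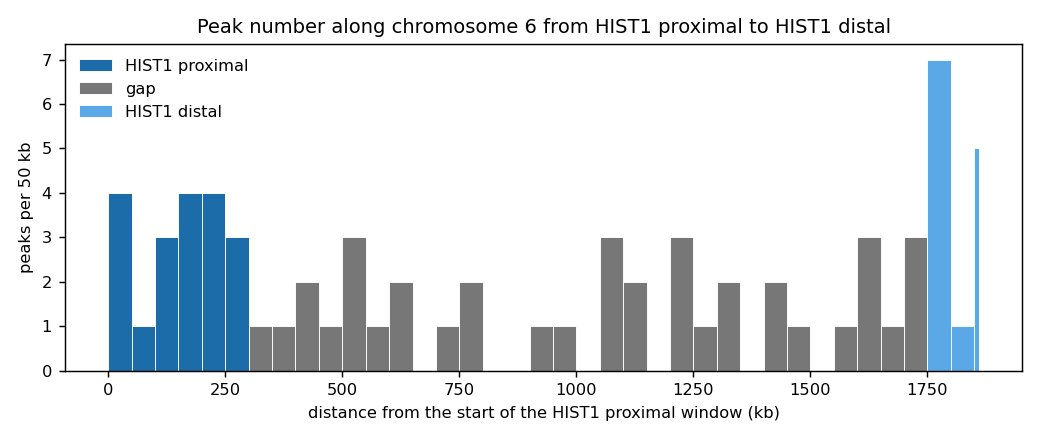
Bars give peaks per 50 kb along chromosome 6 from the start of HIST1 proximal to the end of HIST1 distal, coloured by the stretch that holds the middle of the bin; the last bin is 10 kb long and its 1 peak is scaled to 50 kb. Bins of HIST1 proximal hold 1 to 4 peaks, the first bin of HIST1 distal holds 7 (6 of them members), and gap bins hold 0 to 3.

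Scores are values that the authors gave to peaks in their list. They are compared here only within that list, and 3100 or more counts as 1 class, the ceiling. No source states their unit. HIST1 had no high scores, although its median was near that of the list. Among the 27 HIST1 peaks scores ran from 57.14 to 481.99 with a median of 162 (order-statistic interval 109 to 274), against 172 over all peaks. None of the 27 reached 1000, where 18.6% of all peaks did; 3 counts in 27, the limit taken for a count of 0, is 11.1%, and the Wilson upper limit is 12.5%. Scores below 100 were held by 6 of the 27 (22.2%, Wilson interval 10.6% to 40.8%), against 32.9% of all peaks. The HIST2 median was 941 and that of HIST3 472. In HIST2 and HIST3 together 4 of 13 peaks scored 1000 or more (30.8%, 12.7% to 57.6%). Scores were also low between the HIST1 windows: 1 of 38 gap peaks reached 1000, and from the start of HIST1 proximal to the end of HIST1 distal, 1.86 Mb, the count was 1 of 66 (1.52%, 0.268% to 8.10%). In the rest of chromosome 6 the share was 20.2%.

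In HIST1 proximal the strongest peak lay from 26171660 to 26173095 with a score of 481.99 and a width of 1436 bp. The next were 26031534 to 26034104 (score 309.86, 2571 bp) and 26125363 to 26127174 (score 242.23, 1812 bp). The weakest, 26122792 to 26125248, scored 57.14 over 2457 bp and was 114 bp away from the third strongest. The widest was 26156073 to 26159143 with 3071 bp and a score of 161.99, and the narrowest was 26251519 to 26252698 with 1180 bp. The second strongest peak was also the second widest, while the strongest was narrower than the cluster's median width of 1812 bp and the weakest was wider. Below a score of 100, near the floor of 50, stood 6 of its 19 peaks (31.6%).

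HIST1 distal had a narrower range of scores, 109.13 to 390.93, over fewer peaks, and no peak below 100. For 0 of 8 the Wilson upper limit is 32.4% and 3 counts are 37.5%, beside 32.9% of all peaks below 100. The strongest peaks of HIST1 distal were 27793877 to 27796306 (score 390.93, 2430 bp), 27798350 to 27799539 (327.72, 1190 bp) and 27774159 to 27776649 (316.78, 2491 bp). The weakest was 27834226 to 27835726 (109.13, 1501 bp) and the narrowest 27777627 to 27778700 (1074 bp). Its widest, and the widest of HIST1, was 27859626 to 27863801 with 4176 bp at a score of 273.88.

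At the ceiling stood 2 of the 40 members (5%, Wilson interval 1.38% to 16.5%), near the 4.69% of all peaks. Both were among the 8 HIST2 peaks (25%, 7.15% to 59.1%). They were chromosome 1 from 149810523 to 149815500 (4978 bp) and from 149820608 to 149826445 (5838 bp), separated by 5.1 kb, and these were also the widest of the 40. Peaks on both sides scored 1043.61 (149802651 to 149805588, 2938 bp) and 892.34 (149831436 to 149834675, 3240 bp). They lay 4934 and 4990 bp from the nearer ceiling peak. The remaining HIST2 peaks scored 989.12 (149763639 to 149766050), 756.75 (149856679 to 149860591), 326.74 (149782955 to 149785567) and 88.65 (149766401 to 149767562, 1162 bp, the narrowest). The highest scores thus lay in the middle of the window, and the peak at 149763639 stood high near its edge. Without HIST2 no member stood at the ceiling.

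HIST2 also contains genes in near-identical copies. The 250 bases upstream of H4C14 and H4C15 were the same in every letter, and H3C14 and H3C15 shared a run of 246 bases and H2AC18 and H2AC19 one of 249. These 6 genes made up 6 of the 11 HIST2 windows. Pairs of windows that overlap on the chromosome were left out, and each window was compared in the direction of its gene only. Within these limits, no window of HIST1 proximal (30 windows) or HIST3 (3 windows) shared at least 50 bases with another. In HIST1 distal 6 of 14 windows did. Their runs of 93 to 126 bases lay among H2BC13 and H2BC14, H2AC13 and H2AC14, and H4C11 and H4C12. A read that lies wholly within such a shared run cannot be placed uniquely. How the authors treated such reads is not given in the sources used here, and their part in the HIST2 scores was not tested. Sequence outside the 250 bases was not compared. Whether the HIST2 ceiling peaks lie on copies of each other was not tested, and the shares at the ceiling count them as separate peaks.

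HIST3 had scores of 1171.48 (chromosome 1 from 228644655 to 228647704, 3050 bp, its strongest and widest), 796.72 (228602401 to 228605176), 471.76 (228633185 to 228634603), 221.77 (228651019 to 228652924) and 58.07 (228616067 to 228617175, 1109 bp, its weakest and narrowest). Stronger peaks stood next to it on both sides. One of 4814 bp with a score of 2503.12 ended 2.45 kb before the window, and one of 3877 bp at the ceiling began 13.3 kb after it. The widest peak of the whole list, 41469 bp with a score of 606.88, began 83.7 kb after the window. Among the 25 entries that follow the HIST3 run in the gene table, 17 are genes for 5S ribosomal RNA, a tandem repeat; whether that peak covers them was not checked.

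**Figure D4:**
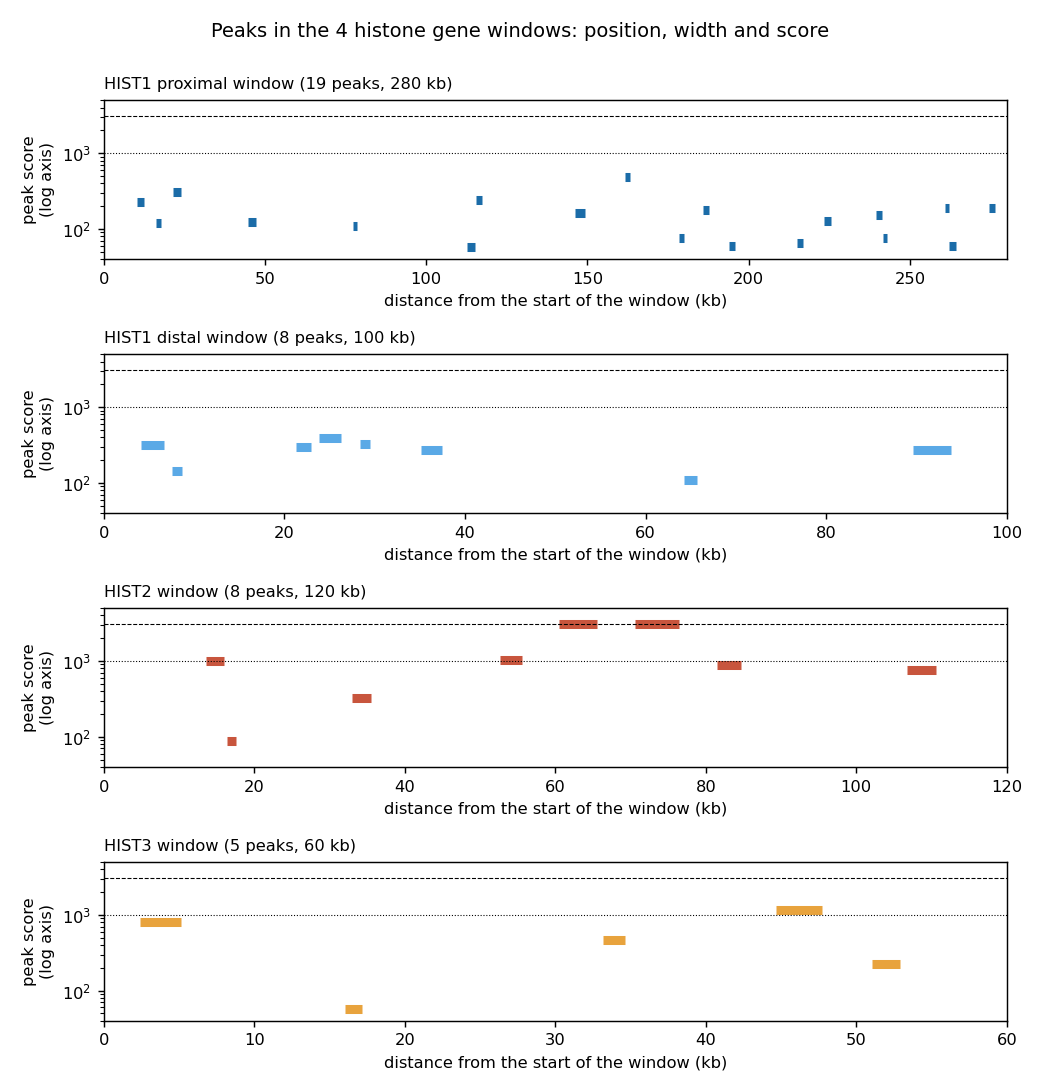
Each horizontal segment is 1 peak, drawn to scale from its start to its end in kb from the start of the window and placed at its score on a log axis; the dotted line marks 1000 and the dashed line 3100. All HIST1 segments lie below 500, and 2 HIST2 segments lie on the dashed line.

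Median CG number and median score were 6 and 127 in HIST1 proximal, 10 and 286 in HIST1 distal, 14 and 941 in HIST2 and 15 and 472 in HIST3. HIST3 broke the common order, with the highest CG median and the second highest score. The HIST2 CG median counts near-identical gene copies separately. With 4 clusters, and CG number taken from genes and score from peaks not joined to them, this is a description only.

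Histone peaks were wide for their score. Their median width was 1952.5 bp (order-statistic interval 1668 to 2430) against 1499.5 bp (1202 to 1841) in the gap and 1531 bp in the list. By cluster it was 1812 bp in HIST1 proximal, 1978.5 bp in HIST1 distal, 3089 bp in HIST2 and 1906 bp in HIST3. Peaks covered 16.1% of the windows, from 12.8% in HIST1 proximal to 22.6% in HIST2, against 4.24% of the gap. Because width rises with score, each peak was also set against all peaks whose score lay within 10% of its own, or against the other ceiling peaks. Of the 40 members 32 were wider than the median of those peaks (80%, Wilson interval 65.2% to 89.5%), where 50.2% of all peaks were. The share was 16 of 19 in HIST1 proximal, 5 of 8 in HIST1 distal, 7 of 8 in HIST2 and 4 of 5 in HIST3. In the gap it was 23 of 38 (60.5%, 44.7% to 74.4%) and in the flanks 23 of 34 (67.6%, 50.8% to 80.9%), so the interval of the histone windows overlaps both.

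The excess over the gap was larger among weak peaks than among peaks of middle score. All 8 members with scores from 50 to 100 were wider than the list's median for that class, 1004 bp, and their median was 1554.5 bp against 1093 bp for the 14 gap peaks of the class. From 100 to 300 the medians were 1895 bp for 17 members and 1615 bp for 16 gap peaks, and from 300 to 1000 they were 2491 bp for 11 and 2482 bp for 7. Above 1000 there were 4 members and 1 gap peak, too few to compare. The weakest HIST1 proximal peak, 2457 bp at a score of 57.14, was 2.71 times the median width of peaks with similar scores, and 26272170 to 26274139 (score 59.82, 1970 bp) was 2.11 times it. Both stood beside a stronger peak, 114 and 140 bp away with scores of 242.23 and 187.27. Whether either pair is 1 enriched stretch that was split was not tested. At the other end the strongest HIST1 proximal peak was 0.671 times that median.

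**Figure D5:**
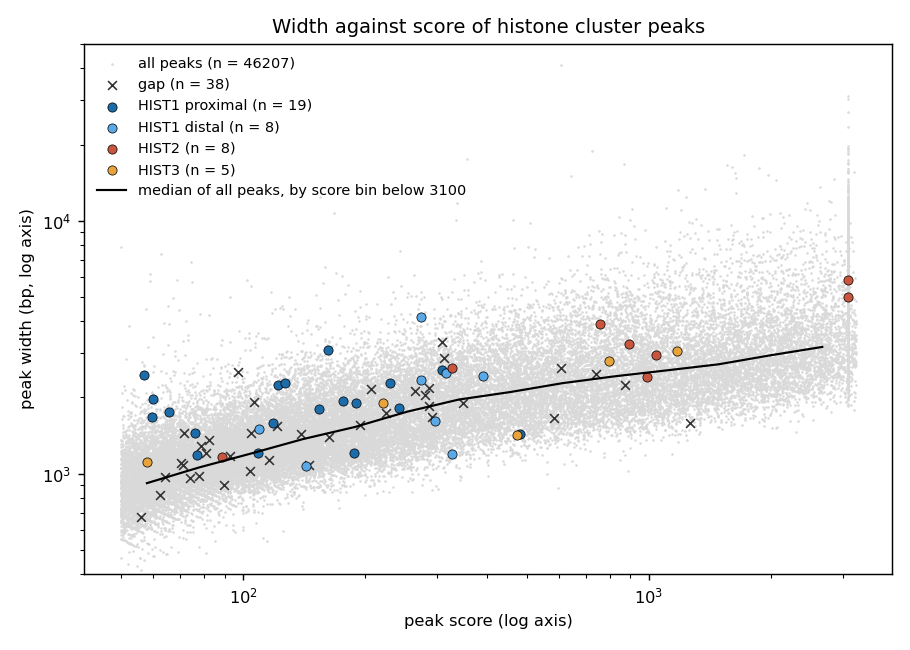
Each point is a peak, with its score on the x axis and its width in bp on the y axis, both log axes; grey dots are all 46207 human peaks, the line is their median by score bin, crosses are gap peaks and coloured circles are histone cluster peaks. Of the 40 circles 32 are wider than the median of peaks with similar scores, and the 27 HIST1 circles all lie left of a score of 500.

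Within the gap peaks were scattered. Its strongest peak, 26923759 to 26925344, scored 1259.8 and was 1586 bp wide, and its widest were 26595698 to 26599015 (3318 bp), 27099255 to 27102121 (2867 bp) and 26520401 to 26523016 (2616 bp). The fullest 100 kb, from 26500001 to 26600000, held 5 peaks and the 100 kb from 26800001 to 26900000 held 0. On a fixed grid of 30078 windows of 100 kb across the genome, 4.83% held 8 or more peaks and 18.1% held 3 or more. The windows that touch HIST1 proximal held 5, 6 and 8 peaks, those that touch HIST1 distal 9 (3 of them in the gap) and 3, those that touch HIST2 4 and 8, and the one that touches HIST3 7. Of these 8 windows, 3 thus held 8 or more, and the other 5 held numbers reached by 6.20% to 18.1% of all windows. The grid windows reach past the histone windows. HIST1 distal, HIST2 and HIST3 had 8, 8 and 5 members, so the grid numbers of these clusters include peaks that are not members.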

How the data were processed

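The data were 1 V5 ChIP library and 1 input library, from which the authors deposited 1 peak list of 5 columns without a header. Reads were aligned with BWA 0.7.17 to hg19, per the submitters' processing notes; the peak names in the file are of MACS form, but no source used here gives its version or settings. The score of each peak was computed by the authors and deposited with no unit; it starts at 50, and 2030 peaks carry exactly 3100. Depth is unknown.

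Members were peaks overlapping a window by at least 1 base. Members, windows and lists were chosen with earlier results of these data known. Peaks were not joined to genes, since the gene and promoter tables (RefSeq, GRCh38.p14) are on another build. They gave names, gene order and upstream sequence only. For the larger stretches, length ran from the first peak to the last, minus intervals of over 1 Mb that held no peak. A near neighbour was another midpoint within 10 kb. Named peaks were, per window, the 3 with the highest score, the widest, the narrowest and the weakest, and in the gap the 3 widest, the strongest and the fullest 100 kb; other peaks named were chosen after their values were seen.

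Intervals are 95% (Poisson, Wilson, exact for ratios, order statistics for medians), reflect counting error alone and assume independent peaks, although neighbours are not independent. With 1 library per group there was no test. Scripts were tested on simulated data. Python 3.11.15, pandas 2.3.3, numpy 2.4.6, scipy 1.17.1 and matplotlib 3.10.9 were used. Alternatives were score minimums of 100 and 300, merging up to 1 kb, other windows and comparison stretches, and each window left out; the HIST1-only ratio, peaks per gene and width for score were added after seeing the data.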

Additional observations from a re-analysis of the deposited data

How the results depend on the processing

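The density ratio of histone windows to gap stayed above 1 in 11 of 11 settings. It was 4.85 with scores of 300 or more and 5.47 against the rest of chromosome 6. With the same score minimum the number of members was 15, the median width 2613 bp, the covered share 7.73% and the share with a neighbour within 10 kb 46.7%. Merging peaks up to 1 kb apart gave a median width of 2455 bp and a neighbour share of 52.9%, and a minimum of 100 gave a neighbour share of 50%. Without HIST1 proximal 21 members were left, and without HIST2 the share at the ceiling was 0%. Of 63 alternative values, 52 stayed within the interval of the reported value and 11 moved. For the count, the covered share and the ratio of median widths, staying meant within 1.5 times the reported value. A reversal was defined only for ratios, as crossing 1, and 0 did so. Widths, shares and peak numbers could not be counted as reversed. For the HIST1 windows alone, added after seeing the data, the ratio was 2.71, and 2.38 with scores of 300 or more (0.614 to 8.27, an interval that includes equality). No paired analysis was possible because the ChIP and the input are single libraries. The peak list has no counts, so what depth limits cannot be stated.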
